A study of Mus musculus with 2 samples.

Results

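Block 3 of the anti-Rbfox1 file is a run of consecutive lines that held 1037 of the 64820 reads of that library (1.60%, 95% interval 1.5 to 1.70). The lines of the file are sorted by chromosome name, and the sorting starts over several times. Every restart opens a new block, and the third of the 11 blocks is described here. No source used here says what a block represents. Reads of block 3 on 1 strand were joined into a cluster where each crosslink position lay at most 20 nt from the next, which gave 400 clusters of the 10137 in the library (3.95%, 3.58 to 4.34). The control partner, block 2 of the anti-Flag file, held 33 reads in 14 clusters, out of 569 reads in 233 clusters. That pairing was proposed from earlier results on the same reads and is examined further on.

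The study crosslinked RNA to protein in cultured mouse forebrain neurons at 14 days in vitro with 254 nm ultraviolet light at 500 mJ/cm2, and collected the material released by a short, mild detergent lysis as the cytoplasmic fraction. One library was made by precipitation with antibodies against Rbfox1, and the other, the control, with antibodies against the Flag epitope. Both came from the same kind of culture, age and fraction, and no genetic change or further treatment is named for either. There was 1 library per antibody, so no value has a replicate check. All intervals are exact 95% intervals that cover counting error only, since amplified reads are not independent molecules, and the tests compare sets of lines within these libraries, not antibodies in general.

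Rbfox1, made in neurons, heart and muscle, binds RNA and recognises the short RNA element GCAUG through a single RNA recognition motif. Its nuclear forms are best known as regulators of alternative splicing, where they bind introns beside exons. Its cytoplasmic forms are known to bind the 3′ untranslated regions of messenger RNAs. In iCLIP (individual-nucleotide crosslinking and immunoprecipitation), reverse transcription tends to stop at the base that was joined to the protein, so the base before the start of a read is taken as the crosslink position. The reads were aligned to the mm9 build of the mouse genome, and a genome and annotation of that build were not used here. The regions are therefore given by their mm9 position and strand alone, with no gene, transcript class or sequence.

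The clusters of block 3 were small and shallow. They were between 17 and 110 nt wide, with a median of 38.0 nt (interquartile range 30.8 to 46.0), and their reads had a median length of 29.0 nt (23.0 to 37.0). The mean was 2.59 reads a cluster. Of the 400 clusters, 305 held 2 reads (76.2%, 71.8 to 80.3), 59 held 3 and 21 held 4. No lower limit was set here, yet no cluster of block 3, or of blocks 1, 4 and 9, held a single read. A size of 2 reads is therefore the floor in the reads as deposited. Only 15 clusters held 5 reads or more, and they accounted for 166 of the 1037 reads. There was a wide gap in size between the 3 deepest, at 32, 31 and 28 reads, and all others, which held 8 or fewer.

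**Figure D1:**
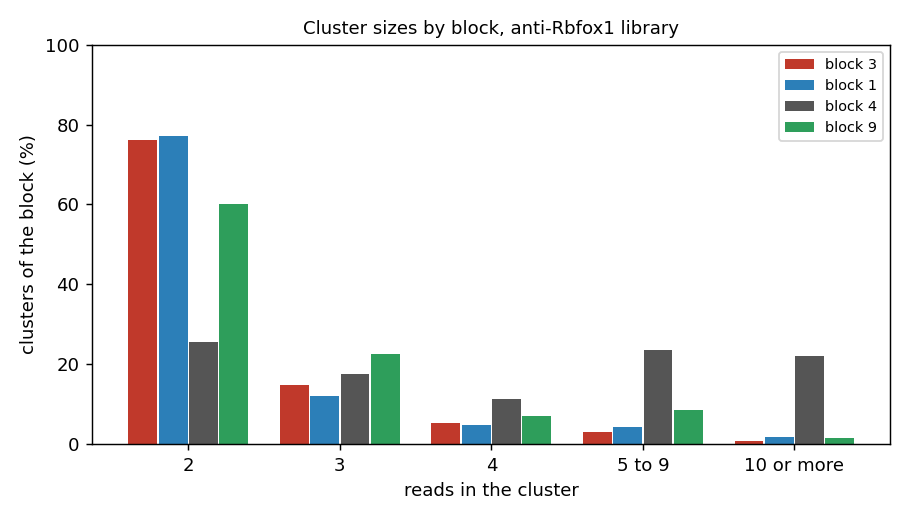
Percent of clusters (y axis) by the number of reads in the cluster (x axis) for 4 blocks of the anti-Rbfox1 library, 1 bar colour per block. Blocks 3 and 1 had nearly the same share of clusters of 2 reads, 76.2% and 77.1%, while in block 4 that share was 25.6% and 22.0% of clusters held 10 reads or more.

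In cluster size block 3 was near block 1, the first run of lines, and far from block 4, the largest. The block was singled out for its small clusters and its plus-strand bias, so its sizes and strand shares are set beside those of other blocks as a description, with no test. Clusters of 2 reads made up 77.1% of block 1, -0.834 percentage points from block 3, 25.6% of block 4 and 60.2% of block 9. Clusters of 10 reads or more made up 0.750% of block 3 (0.155 to 2.18), 1.82% of block 1, 1.51% of block 9 and 22.0% of block 4. Block 6, the nearest in number with 305 clusters, had a mean of 9.20 reads a cluster, and block 9, with 663 clusters, had 3.07. Reads shorter than 20 nt made up 8.78% of block 3 (7.12 to 10.7) and 9.88% of all other blocks (Fisher's exact p = 0.248, adjusted p = 0.331). All p-values of this kind are two-sided and adjusted by Benjamini and Hochberg over all 104 comparisons of shares between block 3 and other blocks, those given here without a p included.

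The shapes of the clusters differed between the strands of block 3. On the plus strand all 789 reads had different crosslink positions, while the 248 minus-strand reads shared 236 positions. No pair of reads in block 3 had the same leftmost base and strand, whereas 268 reads repeated a rightmost base. In block 1 likewise 0 reads repeated a leftmost base, but in block 4 16313 did and in block 9 315. The leftmost base is the start of a plus-strand read and the 3′ end of a minus-strand read. Accordingly 127 of 298 plus-strand clusters in block 3 (42.6%, 36.9 to 48.4) consisted of reads that all ended at 1 base, and 0 of 102 minus-strand clusters did, which follows from the single use of each leftmost base. On the plus strand the same share was 50.1% in block 1, higher than in block 3 (Fisher's exact p = 0.0165, adjusted p = 0.0264), 5.90% in block 4 and 19.5% in block 9. A cluster of few reads more readily ends at 1 base. Clusters of 2 reads made up 77.2% of plus-strand clusters in block 3, 78.7% in block 1, 26.5% in block 4 and 61.9% in block 9. The shares of blocks 4 and 9 are therefore given without a test. Among clusters of 2 reads, the crosslinks of the pair lay a median of 3 nt apart on the plus strand (interquartile range 1 to 9) and 8 nt on the minus strand (3 to 11). For 75 of the 230 such plus-strand clusters (32.6%, 26.6 to 39.1), the reads shared their 3′ end and had crosslinks 1 nt apart. That share was 40.5% in block 1 (Fisher's exact p = 0.0222, adjusted p = 0.0350), 9.77% in block 4 and 19.7% in block 9. Over all other blocks it was 30.9%, but 763 of those 877 pairs were in block 1. Blocks 4 and 9 repeat leftmost bases, so a plus-strand pair there can share its crosslink position, which it cannot in block 3. Their shares and the pooled one are therefore given without a test.

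The spacing between neighbouring crosslink positions showed where the join of 20 nt falls. In block 3, 430 neighbouring reads on a strand lay 1 to 5 nt apart, 111 lay 6 to 10 nt, 77 lay 11 to 15 nt, 7 lay 16 to 20 nt, 3 lay 21 to 25 nt and 2 lay 26 to 30 nt. The fall above 15 nt was also present in the other blocks, where 2358 pairs lay 11 to 15 nt apart and 192 lay 16 to 20 nt. With clusters of a single position left out, a join of 10 nt gave 331 clusters, one of 15 nt gave 396 and one of 50 nt gave 391.

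Most clusters of block 3 were on the plus strand, 298 of 400 (74.5%, 69.9 to 78.7), with 102 on the minus strand. Across all other blocks 56.1% of clusters were on the plus strand, in block 1 65.7%, in block 4 49.7% and in block 9 51.9%. By reads the plus share of block 3 was 76.1%, and by distinct crosslink positions 77.0%. In the control partner 12 of 14 clusters (85.7%, 57.2 to 98.2) and 28 of 33 reads were on the plus strand. The share of clusters in block 3 lies within the interval of the control's share.

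The plus-strand clusters were not spread evenly over the chromosomes. Chromosome 12 had 77 clusters on the plus strand and 1 on the minus strand, chromosome 10 had 39 and 0, chromosome 5 had 52 and 1, and chromosome 16 had 36 and 6. Minus-strand clusters prevailed on chromosome 18, with 12 plus and 26 minus, and on chromosome 13, with 0 and 11. Clusters on the same strand were therefore also joined into loci wherever fewer than 100 kb separated them, a distance chosen after the positions were seen. The 400 clusters formed 136 loci, of which 86 held 1 cluster, 35 held 2 to 4 and 15 held 5 or more. Of the 15 large loci, 12 were on the plus and 3 on the minus strand.

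Counted by loci, the plus share depended on the distance of the join. With loci joined within 10 kb, 187 of 252 were on the plus strand (74.2%, 68.3 to 79.5), about the share by clusters, beside 67.0% in block 1 and 50.5% in block 4. Within 100 kb it was 85 of 136 (62.5%, 53.8 to 70.6), beside 64.8% in block 1, 50.8% in block 4, 52.5% in block 9 and 56.2% over all other blocks. Within 200 kb it was 59.2% (50.1 to 67.9) and within 500 kb 58.6% (49.1 to 67.7). Outside the 15 large loci, 114 of 180 clusters were on the plus strand (63.3%, 55.8 to 70.4).

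The strand share also differed with the reads that were kept. When 1 read was kept per leftmost and 1 per rightmost base in every block, and clusters left with a single position were dropped, block 3 retained 273 clusters, and its 102 minus-strand clusters all remained. The plus strand kept 171 of 298, so that 62.6% of the 273 (56.6 to 68.4) were on it, beside 49.0% in block 1 and 49.8% in block 4. With both steps together, 54 of 105 loci of block 3 were on the plus strand (51.4%, 41.5 to 61.3), beside 50.5% in all other blocks. The interval of that last share reaches from a minus-strand excess to a plus share of 61.3%, so it does not show that the strands were balanced.

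**Figure D2:**
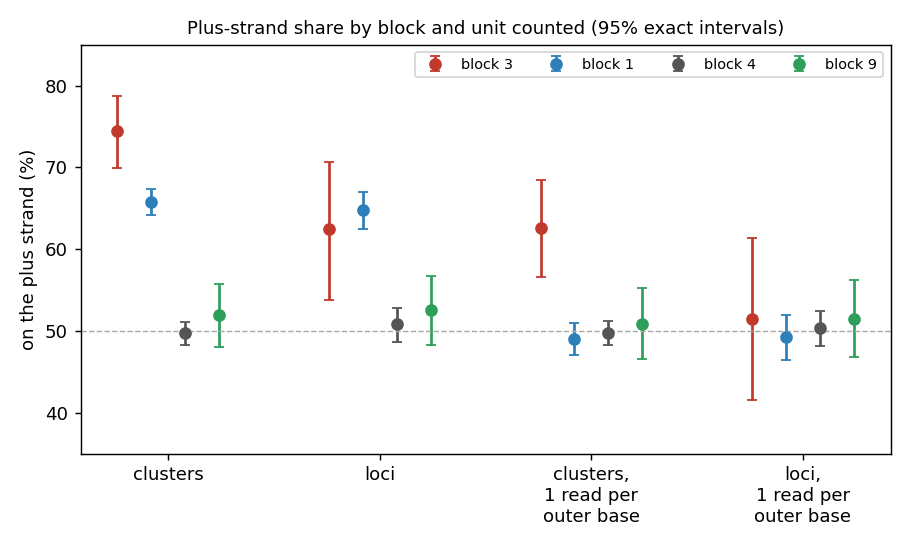
Percent on the plus strand (y axis) for blocks 3, 1, 4 and 9 with exact 95% intervals as bars, counted (x axis) by clusters, by loci joined within 100 kb, and by both again after 1 read was kept per leftmost and rightmost base; the dashed line marks 50%. Block 3 goes from 74.5% by clusters to 62.5% by loci, and to 51.4% by loci after the reads were reduced.

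With loci joined within 100 kb, large loci held more of block 3 than of any of the 3 blocks it was set against. The 15 loci of 5 or more clusters contained 220 of the 400 clusters (55.0%, with an upper bound of 59.9). The same share was 31.7% in block 1, 32.9% in block 4 and 2.41% in block 9. Blocks 1 and 4 have far more clusters than block 3, and a denser set joins more readily. The join of 100 kb was chosen after the positions were seen, and neighbours in a locus are not independent. These shares of clusters are therefore a description, with no test. By number, 15 of 136 loci of block 3 were large, against 7.06% of those in block 1, a difference of 3.97 percentage points that did not pass (Fisher's exact p = 0.0890, adjusted p = 0.129). With a join of 10 kb the order of the blocks differed. Large loci then held 19.2% of the clusters of block 3, 28.1% in block 4, 12.5% in block 1 and 1.51% in block 9.

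The clustering was one of long distances. Within 1000 nt, 68 of 400 clusters (17.0%) had a neighbour of the block on the same strand, as in block 1 at 17.3% (Fisher's exact p = 0.944, adjusted p = 1.00) and far below block 4 at 60.1% (exact p = 3.16e-65, adjusted p = 6.57e-64). Within 10 kb the share rose to 53.5% (48.5 to 58.5), above the 38.6% of block 1 (exact p = 1.38e-08, adjusted p = 4.10e-08). Within 100 kb it was 78.5% (74.1 to 82.4), beside 67.9% in block 1 (Fisher's exact p = 8.45e-06, adjusted p = 1.91e-05), 73.8% in block 4 (exact p = 0.0379, adjusted p = 0.0580) and 26.1% in block 9 (exact p = 1.80e-64, adjusted p = 3.12e-63). On the opposite strand 0 of 400 clusters had a neighbour of the block within 100 kb, which allows a share of up to 0.750%. There the shares were 3.69% in block 1, 17.5% in block 4 and 5.58% in block 9, each higher than in block 3. These are a description, since the block was singled out for its plus-strand bias and has few clusters to lie opposite. It has 102 minus-strand clusters, against 1245 in block 1, 2506 in block 4 and 319 in block 9. The tests on same-strand neighbours take clusters as independent, and the distances of 10 kb and 100 kb were chosen after the data were seen.

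**Figure D3:**
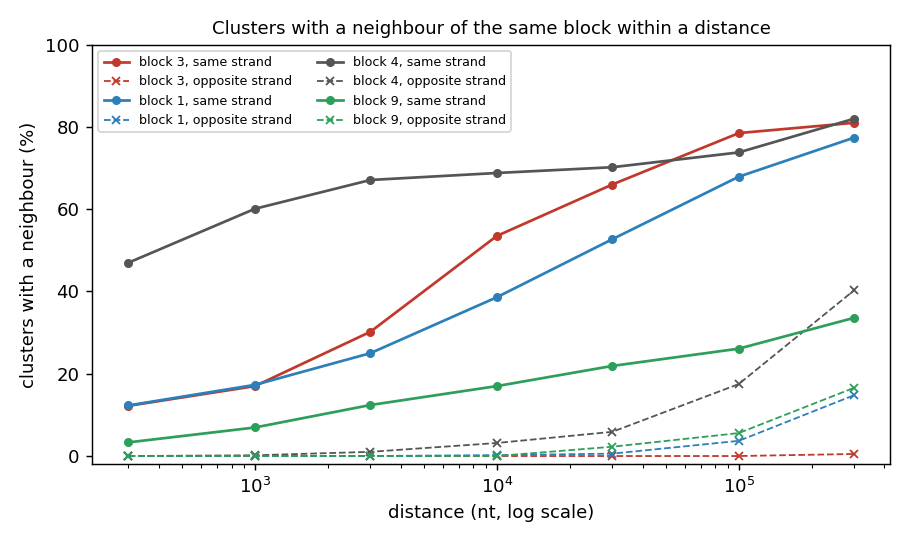
Percent of clusters with a neighbour of their own block (y axis) within a distance in nt (x axis, log scale), on the same strand (solid lines) and the opposite strand (dashed lines), for blocks 3, 1, 4 and 9. The line of block 3 starts beside that of block 1 at 1000 nt, with 17.0% and 17.3%, and reaches 78.5% at 100 kb, while its opposite-strand line is at 0 up to that distance.

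The 6 largest loci together held 161 clusters (40.2% of the block) and 362 reads (34.9%) over 2295 kb. None of their clusters exceeded 6 reads, and 135 of the 161 (83.9%) held 2 reads, against 170 of 239 (71.1%) in the rest of the block. The largest, on the plus strand at chr12:90776089-91560575, held 39 clusters and 85 reads over 784 kb, with a median gap of 14.3 kb between neighbours and no cluster above 4 reads. A second one lay before it on the same strand, at chr12:89972287-90333043, with 33 clusters and 70 reads over 361 kb and a median gap of 7.07 kb. With the join widened to 500 kb, the pair and the clusters between them became a single locus of 1588 kb with 76 of the 400 clusters. Chromosome 12 thus owed 76 of its 78 clusters to 1 stretch of the plus strand.

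On chromosome 10 the plus strand at chr10:90039552-90431962 held 24 clusters and 59 reads, with a median gap of 14.1 kb and up to 5 reads a cluster, and here the control had 4 reads in 2 clusters. The locus at chr5:22253852-22439449, plus strand, held 23 clusters and 48 reads over 186 kb, none above 3 reads. The minus-strand locus on chromosome 18 held 22 clusters and 47 reads over 265 kb, again none above 3 reads. On the plus strand of chromosome 16, at chr16:6836825-7143389, 20 clusters held 53 reads over 307 kb, and the highest held 6. Within 500 kb joins that locus grew to chr16:5962297-7377069, with 32 clusters and 79 reads over 1415 kb. In 5 of these 6 loci, all but that on chromosome 10, there were 0 control reads on the same strand.

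**Figure D4:**
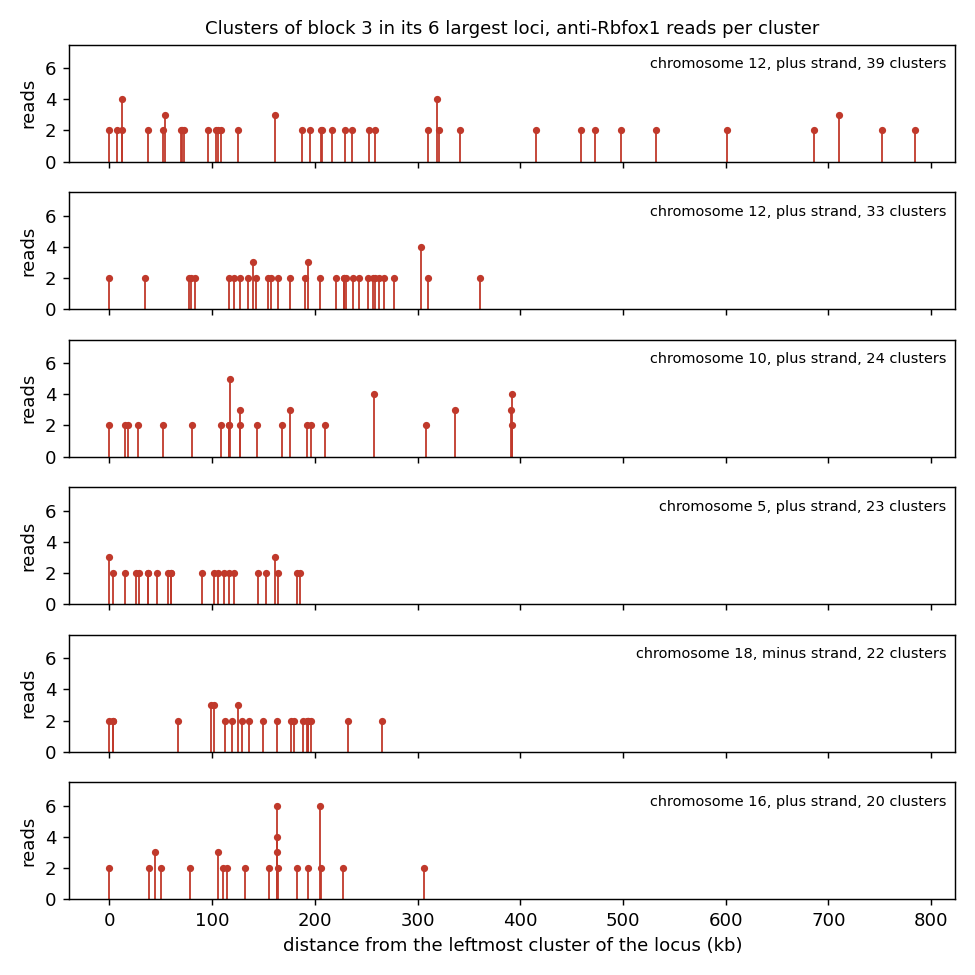
Anti-Rbfox1 reads per cluster (y axis) against distance in kb from the leftmost cluster (x axis) in the 6 largest loci of block 3, 1 panel per locus and 1 stem per cluster. Clusters are scattered over 186 to 784 kb with 2 reads in most of them and at most 6.

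The remaining large loci fell into long, sparse ones and short, dense ones, a division made after their spans were seen. Of the 15, 11 spanned 69.3 to 784 kb, with 195 clusters, 2.30 reads a cluster and 82.1% of clusters at 2 reads. The other 4 spanned 1.64 to 16.8 kb, with 25 clusters, 6.52 reads a cluster and 36.0% of clusters at 2 reads. Without the deepest of them, on chromosome 5, the remaining 3 held 63 reads in 20 clusters, 3.15 reads a cluster, and 40.0% of clusters at 2 reads. Beside the 6 described above, the long ones included the plus strand of chr8:119787365-119915409, with 9 clusters and 29 reads over 128 kb, and that of chr10:39128288-39278386, with 8 clusters and 17 reads. Others were chr2:177876954-177946272 with 6 clusters and 14 reads, chr5:19761790-19855504 with 6 and 13, and chr3:34463406-34554863 with 5 and 13, all on the plus strand.

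Among the dense loci, the minus strand of chr13:57527502-57530593 held 9 clusters and 36 reads within 3.09 kb, and only 1 of the 9 had 2 reads. It consisted of a group of 6 clusters with 25 reads at chr13:57530060-57530593 and one of 3 clusters with 11 reads at chr13:57527502-57527732, both among the 5 stretches with most reads (a stretch joins clusters on 1 strand within 1000 nt). Its highest cluster, at chr13:57530410-57530459, held 7 reads at 7 crosslink positions. Their 3′ ends all differed, which on the minus strand follows from the single use of each leftmost base. At chr5:34212092-34219844 on the plus strand 6 clusters held 16 reads in 7.75 kb, and at chr1:172254128-172255765 on the minus strand 5 clusters held 11 reads in 1.64 kb. There were 0 control reads in any of these 3 loci.

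The deepest site of block 3 was the fourth dense locus, on the plus strand of chromosome 5. Its stretch at chr5:147072570-147072915 held 98 reads in 4 clusters over 346 nt, 9.45% of all reads of the block (7.74 to 11.4), and it overlapped 6 of the 33 control reads. The first cluster, chr5:147072570-147072676, held 31 anti-Rbfox1 and 3 control reads. The second, chr5:147072657-147072694, held 7 and 0, the third, chr5:147072721-147072819, held 28 and 3, and the last, chr5:147072806-147072915, held 32 and 0. Each of the 98 anti-Rbfox1 reads had its own crosslink position, as did every plus-strand read of the block. In all, 28.3% of the bases of the stretch were used. Their 3′ ends fell on 44 bases, the most frequent of which closed 15 reads.

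The control reads lay at places that were also dense in the anti-Rbfox1 library. In bins of 10 nt counted from its centre, the anti-Rbfox1 reads peaked at -150 to -141 nt, with 10 reads, and at -170 to -161 and 0 to 9 nt, with 9 reads each. All 6 control reads lay in the bins -150 to -141 and 0 to 9 nt, with 3 in each. The bin of 10 reads had a read at every base, so with 1 read per crosslink position it could not have held more. Anti-Rbfox1 reads outnumbered control reads 16.3 to 1 in this stretch (7.24 to 45.6) and 34.8 to 1 in the rest of the block (23.7 to 53.1). The stretch took 9.45% of anti-Rbfox1 and 18.2% of control reads of the paired blocks. It was picked for having the most anti-Rbfox1 reads, and its 6 control reads form only 2 clusters. The ratios and shares are therefore a description, with no test.

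**Figure D5:**
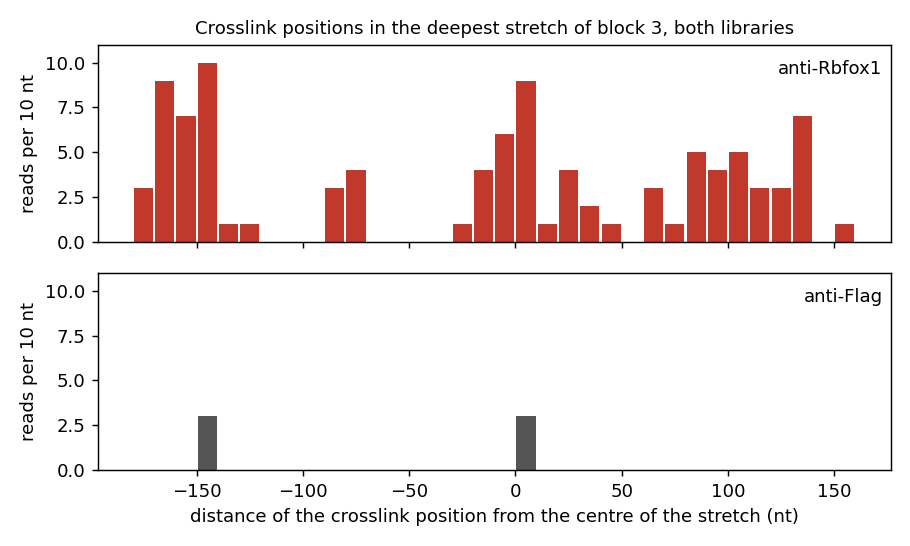
Reads per 10 nt (y axis) by distance of the crosslink position from the centre of the deepest stretch in nt (x axis), anti-Rbfox1 above and anti-Flag below, 1 bar per bin. The control reads fall in 2 bins, starting at -150 and 0 nt, where the anti-Rbfox1 library has 10 and 9 reads.

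Apart from that site, the highest clusters were modest, and 0 control reads overlapped any of them. On the plus strand chr2:71065742-71065796 held 8 reads with 5 different 3′ ends, and chr8:119852125-119852170 held 8 with 2. The minus-strand cluster at chr16:34152127-34152182 held 7 reads. Their 3′ ends all differed, as on that strand they must with each leftmost base used once. Several others were ladders, in which every read ended at the same base and only the crosslink position shifted. They were chr16:7000440-7000502, with 6 reads over 11 crosslink bases and a median read length of 58.0 nt, chr16:7041382-7041426 with 6 reads, chr8:119896557-119896591 with 6 and chr10:89552106-89552152 with 5, all on the plus strand. The remaining clusters of 5 reads were chr10:90156669-90156710 on the plus strand and, on the minus strand, chr13:57527566-57527628 and chr13:57530229-57530279. Of the stretches, chr16:6999548-7000977 and chr2:71065742-71066007, both plus, held 15 reads each, in 4 and 3 clusters.

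The chromosomes differed in their share of block 3 when clusters were counted, and no difference passed when loci were. By clusters, 13 of 21 chromosomes (61.9% of those tested) had a share unlike that of all other blocks at an adjusted p under 0.05 (Fisher's exact test, adjusted over the 21 chromosomes), 5 with a higher share (23.8%) and 8 with a lower one (38.1%). The higher ones were chromosome 12, with 19.5% of block 3 and 3.80% of the other clusters (Fisher's exact test, adjusted p = 7.17e-29), chromosome 5 with 13.2% and 6.14%, chromosome 16 with 10.5% and 3.79%, chromosome 10 with 9.75% and 4.93%, and chromosome 18 with 9.50% and 3.26%. Each of these 5 carries at least 1 of the 6 largest loci. By loci, 0 of 21 chromosomes passed (0%) and 1 had an unadjusted p under 0.05. Chromosome 12 then held 5 of 136 loci (3.68%) beside 4.25% of the loci of other blocks. The tests by clusters take them as independent, though 76 of the 78 on chromosome 12 lay in 1 locus joined within 500 kb. With only 136 loci, the absence of calls does not show that the shares were equal.

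At short distance on its own strand, block 3 kept apart from blocks 1, 4 and 9 of the same library. Within 10 kb on the same strand, 0 of its 400 clusters had a cluster of block 1, 4 or 9, although these blocks hold 3635, 4982 and 663 clusters. A count of 0 allows up to 0.750% of the clusters of block 3. Blocks 2, 5, 7, 8 and 10, with 85 clusters or fewer, are too small to tell. In the same window 17 clusters of block 3 (4.25%) had one of block 6, which holds only 305, and 3 had one of block 11, which holds 46. Seen from the other side, 24 of 305 block 6 clusters (7.87%, 5.11 to 11.5) and 3 of 46 block 11 clusters (6.52%, 1.37 to 17.9) lay that close to block 3. For block 4 that was 0 of 4982, which allows up to 0.0602% (Fisher's exact p = 7.68e-31 against block 6 and 7.17e-07 against block 11). By contrast 249 clusters of block 1 (6.85%) lay within 10 kb of block 4, 116 (3.19%) near block 9, and 0 near blocks 6 and 11. The tests here take clusters as independent. Several of the 24 block 6 clusters lay side by side, as those between chr7:19544082 and chr7:19548104 did, so the p-values overstate the number of separate sites.

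Within 100 kb the shares near block 3 were again higher for blocks 6 and 11 than for blocks 1 and 4. There 66 of 305 block 6 clusters (21.6%, 17.1 to 26.7) and 10 of 46 block 11 clusters (21.7%, 10.9 to 36.4) had a block 3 cluster on their strand, against 9 of 3635 in block 1 (0.248%) and 16 of 4982 in block 4 (0.321%). The differences between block 6 and these passed (Fisher's exact p = 2.83e-66 and 2.56e-69), in tests that again take neighbouring clusters as independent. On the opposite strand 0 clusters of block 6 (which allows up to 0.984%) and 0 of block 11 (up to 6.52%) lay within 100 kb of block 3, and 10 of 3635 in block 1 and 37 of 4982 in block 4, shares too low for these limits to tell them apart. Counted from block 3, 10 of its clusters had a block 4 cluster within 100 kb on the same strand and 48 on the opposite strand. For block 1 these counts were 6 and 12, for block 9 they were 3 and 15, and for block 6 they were 53 and 0. Of the 5 clusters of block 8, 3 also lay within 100 kb of block 3. On the plus strand of chromosome 7, the block 6 cluster chr7:51613189-51613264 held 31 reads and lay 1.35 kb from a block 3 cluster. On chromosome 10 the block 6 cluster chr10:39283886-39283928 held 10 reads and lay 5.54 kb from a block 3 cluster, just past the end of the 150.1 kb locus there. Between the ends of the 15 large loci there were 0 clusters of any other block on either strand. In block 1, 12 of 128 large loci (9.38%) held clusters of another block on their strand, a difference that did not pass the test (Fisher's exact p = 0.365).

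Against the control, block 3 had 31.4 times the reads of its partner (22.2 to 45.9) and 28.6 times the clusters (16.8 to 52.7). Block 1 and its partner gave 32.8 (29.3 to 36.9), block 4 and its partner 259.8 (225 to 302) and block 9 and its partner 53.5 (38.8 to 75.8). By clusters the ratios of these pairs were 28.0, 71.2 and 44.2, and block 4 is the one of them with 16313 repeats of a leftmost base. These ratios were not scaled to sequencing depth. Control reads of the partner were shorter, with a median of 22.0 nt and 11 of 33 under 20 nt (33.3%, with an upper bound of 51.8), against 8.78% in block 3. In control blocks 1, 3 and 6 the median read lengths were 28.0, 28.0 and 27.0 nt. The 33 reads form only 14 clusters and the pairing was proposed from them, so this is a description, with no test. The 14 control clusters held 2 or 3 reads each, and 0 held 4 or more.

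Of the 33 control reads, 8 (24.2%, 11.1 to 42.3) shared a base with reads of block 3 on the same strand, and no further one overlapped any other block. Of the reads of all other control blocks, 133 of 536 (24.8%, 21.2 to 28.7) overlapped some anti-Rbfox1 read (Fisher's exact p = 1.00). The 8 reads that overlapped block 3 made up 3 control clusters. Of these, 2 were in the deepest stretch on chromosome 5 and 1 was at chr10:90215629-90215665, where 2 control reads met a block 3 cluster of 3 reads. Without the deepest stretch, 2 of 27 control reads overlapped (7.41%, 0.910 to 24.3), so the overlap rests mainly on 1 site. In the other pairs 19.7% of control reads overlapped for block 1 (exact p = 0.500 against block 3), 38.4% for block 4 (Fisher's exact p = 0.168) and 5.26% for block 9 (exact p = 0.0372). These p-values are unadjusted and take reads as independent, though 6 of the 8 reads lie in 1 stretch. The partner of block 3 was also proposed from these reads, so no difference between pairs is drawn from them.

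Other control clusters were often in the neighbourhood of block 3. Of all 14, the 3 overlapping ones included, 4 lay within 1000 nt of a block 3 cluster on the same strand, 6 within 10 kb and 10 within 100 kb (71.4%, 41.9 to 91.6). At 100 kb the counts were 0 for block 1, 1 for block 4, 1 for block 6, 3 for block 11 and 0 for block 9. The pairing was proposed from these reads, so this nearness is a description. Of the other control blocks, block 5 has only 2 clusters, and both lay within 100 kb of block 3 on the same strand. In control blocks 1, 3, 4, 6 and 7 there were 0 such clusters. At chr10:90180507-90180551 a control cluster of 2 reads lay 2.50 kb from a block 3 cluster within the large locus of that chromosome. The control cluster chr17:36002687-36002706 lay 0.437 kb from block 3, and chr17:25356104-25356155 lay 5.27 kb from it. The 4 control clusters farther than 100 kb were on chromosomes 8, 9, 15 and 16.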

How the data were processed

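Per the labels, cytoplasmic RNA crosslinked in neurons at 14 days in vitro was precipitated with anti-Rbfox1 or anti-Flag antibodies, 1 library each. Bowtie and the mm9 build are named in the submitters' processing notes. No source used here gives their versions, the mismatch settings or how PCR copies were removed. The deposited files list 1 aligned read per line with first base, last base, strand and the position before the 5′ end, used as the crosslink position. They hold no abundance value. Blocks, clusters (20 nt), stretches (1000 nt) and loci (100 kb) were formed within each block, so the library has 10137 clusters. Neighbour distances run between cluster midpoints, and overlapping reads share 1 or more bases and the strand. Shares have Clopper-Pearson 95% intervals and two-sided Fisher's exact tests, and for a count of 0 the limit was 3 counts. The regions named are the 15 clusters and 5 stretches with most reads, the 3 clusters that overlap control reads, and control clusters of 4 or more reads. Large loci and control clusters beside them were chosen after their values were seen. The members, lists and tests were chosen with earlier results of these data known. Gene lists, transcript regions and the motif need an mm9 annotation and were not analysed. The steps were tested on simulated data. Python 3.11.15, numpy 2.4.6, pandas 2.3.3, scipy 1.17.1 and matplotlib 3.10.9 were used.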

Additional observations from a re-analysis of the deposited data

How the results depend on the processing

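Alternatives that use loci, block 1 alone, longer neighbour distances, a join of 15 nt, the plus strand alone or no deepest stretch were chosen after the data were seen. Of 35 alternatives, 23 were counted as unchanged, a label that did not require the same value. For example, the plus-strand difference by clusters of 18.4 percentage points was counted so at 8.75 against block 1 alone. It was also counted so at 12.7 after 1 read was kept per leftmost and rightmost base. Many of the 35 concern strand share and cluster size, for which the block was singled out. The count is therefore a description and not a check of these traits. The plus-strand share of block 3, 18.4 percentage points above the other blocks by clusters, was 23.7 points above among clusters of at least 5 reads, 7.20 outside large loci, 6.32 by loci, 3.46 by loci joined within 200 kb, 0.954 by loci after 1 read was kept per leftmost and rightmost base, and -2.27 by loci against block 1 alone. The share of clusters with 2 reads, 28.5 points above the other blocks, was -0.834 against block 1 alone. The same-strand neighbour share, -22.7 points within 1000 nt, was 0.321 within 10 kb and 11.1 within 100 kb. Reads under 25 nt were -3.09 points from the other blocks (exact p = 0.0372), where those under 20 nt were -1.10. The 13 chromosomes called by clusters became 0 by loci. The control overlap of 24.2% became 7.41% without the deepest stretch. For none of these changes was the cause tested. Alternatives for transcript regions and the motif were not run. No paired analysis was possible because there is only 1 library for each antibody. The 33 control reads limit every comparison with the control.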

Other observations

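The read names give the tile of the sequencing lane on which each read was imaged, out of 96 tiles. In block 3, 75.5% of reads (72.8 to 78.1) came from the first 16 tiles, as in block 1 with 75.4% (Fisher's exact p = 0.970, adjusted p = 1.00). In block 4 the share was 82.5% (exact p = 1.86e-08, adjusted p = 5.37e-08) and in block 9 83.1% (exact p = 8.39e-07, adjusted p = 2.18e-06).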
